A study of Arabidopsis thaliana with 12 samples.

Results

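The genes described here are 34 members of the phi and tau families of glutathione transferase in *Arabidopsis thaliana*, out of 28496 genes in the deposited table. They were chosen by gene identity, as a fixed set of AGI codes, with earlier results of these data known. Of the 34, 10 are phi genes (*GSTF*) and 24 are tau genes (*GSTU*). RNA was sequenced from leaves of 4 genotypes, all in the Col-0 background and grown in short days. *ADR1-L2 DV* carries *ADR1-L2 D484V*, an activation mimic of the helper immune receptor ADR1-L2, under the native *ADR1-L2* promoter in the *adr1-l2-4* mutant. The lines *sadr1-26.6* and *sadr1-30.4* hold the same transgene and the same *adr1-l2-4* allele, each with its own mutation in *SADR1*, a gene for a TIR-type receptor (TNL). Both came from a screen for mutants that suppress *ADR1-L2 DV*, so any other mutation of these lines is not separated from *sadr1*. Wild-type Col-0 was the control. Every genotype was sampled 3 times, in independent experiments, with 2 leaves in a sample taken from more than 1 plant.

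Glutathione transferases join the tripeptide glutathione to reactive compounds, and ABC transporters of the ABCC type carry many of the conjugates into the vacuole. The phi and tau classes are the large plant classes. In Arabidopsis many of their genes lie in tandem arrays and respond to salicylic acid, oxidative stress or xenobiotics. Some members have a place in specialised metabolism, where they add glutathione to pathway intermediates or bind a product. *GSTF11* and *GSTU20* act in the synthesis of aliphatic glucosinolates, *GSTF6* and *GSTU13* in the pathways to camalexin and to indolic defence compounds, and *GSTF12* (*TT19*) in the movement of anthocyanins to the vacuole.

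The table gives a single pooled value per gene and genotype, with the 3 samples combined by the authors. Values of single samples were not analysed here. Hence a value carries no SD, and no gene was tested. Pooled counts totalled between 20013826 and 21277026 per genotype. Values of 2 genotypes were compared as a log2 ratio of pooled counts scaled by the median of ratios, with 1 added to each scaled count. The range in brackets after a ratio is its exact 95% counting interval (Clopper-Pearson). This interval covers counting error only and leaves out variation between plants. Over 18048 genes with a mean of at least 10 counts, it excluded 0 for 33.3% to 64.7% of genes in the comparisons below. A gene is called higher or lower here only where the ratio reached 2-fold. Of the 34 members, 26 had a mean of at least 10 counts and entered the counts of called genes. The 7 leaf markers, for Rubisco, its activase and other photosynthesis proteins, had 23634 to 400691 pooled counts in every genotype. The 4 root markers reached at most 9 counts and the 4 flower markers at most 30. The gene *ADR1-L2* itself had 8543, 3254 and 1855 pooled counts in *ADR1-L2 DV*, *sadr1-26.6* and *sadr1-30.4*, against 1148 in Col-0, with reads of the transgene and of the native locus not separated.

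Phi genes made up most of the family's RNA. Summed over the 10 phi genes, pooled counts were 63858 in *ADR1-L2 DV*, 34871 in *sadr1-26.6*, 36542 in *sadr1-30.4* and 55917 in Col-0. After scaling, the phi sum of *ADR1-L2 DV* was 0.934 times that of Col-0, while those of *sadr1-26.6* and *sadr1-30.4* were 0.646 and 0.65 times the Col-0 sum. As a share of all counts, however, the phi genes took 0.300% in *ADR1-L2 DV* and 0.278% in Col-0, so the direction of this small difference turned with the scaling. The 24 tau genes showed another order. They summed to 13731 counts in *ADR1-L2 DV*, 17629 in *sadr1-26.6*, 18436 in *sadr1-30.4* and 19655 in Col-0. The scaled tau sum of *ADR1-L2 DV* was 0.571 times that of Col-0, and those of *sadr1-26.6* and *sadr1-30.4* were 0.929 and 0.933 times the Col-0 sum. Thus the phi sum was lowest in the suppressors and the tau sum lowest in *ADR1-L2 DV*. In bulk leaves, fewer cells that express a gene and less RNA per cell cannot be told apart.

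**Figure D1:**
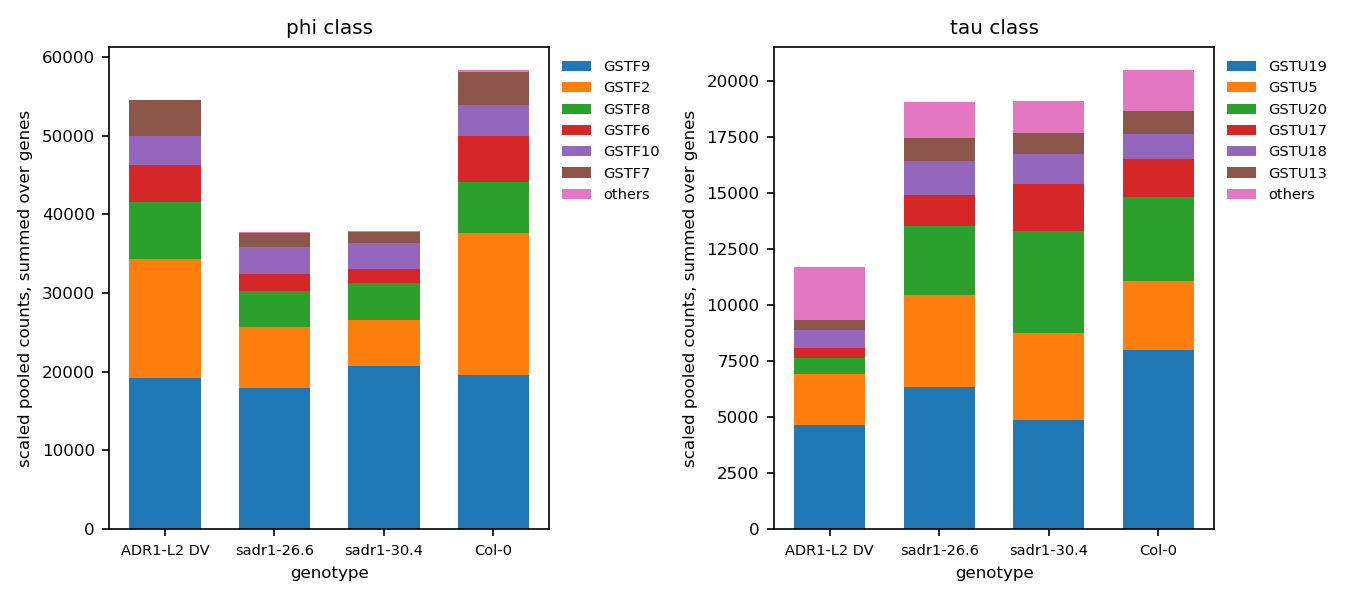
Scaled pooled counts summed over genes of the phi class (left) and the tau class (right), stacked by gene, for *ADR1-L2 DV*, *sadr1-26.6*, *sadr1-30.4* and Col-0; there is 1 pooled value per genotype and no error bar. Against Col-0, the phi bars of both suppressors are shorter mainly through *GSTF2*, *GSTF6* and *GSTF7*. The tau bar of *ADR1-L2 DV* is shorter than that of Col-0 mainly through *GSTU19*, *GSTU20* and *GSTU17*.

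Members differed widely in level. Per kb of exon, *GSTF9* was the highest, at a mean of 15700 scaled counts over the genotypes, followed by *GSTF2* (7980), *GSTU19* (5310), *GSTF10* (3130) and *GSTF6* (3050). *GSTF9*, a phi enzyme whose transcript is abundant in leaves, had 22438 pooled counts in *ADR1-L2 DV*, 16509 in *sadr1-26.6*, 19954 in *sadr1-30.4* and 18778 in Col-0. Its log2 ratio to Col-0 was -0.03 (-0.06 to -0.01) in *ADR1-L2 DV*, -0.13 (-0.16 to -0.10) in *sadr1-26.6* and 0.08 (0.05 to 0.11) in *sadr1-30.4*. The most abundant member therefore stayed well inside 2-fold in all 3 mutant lines. Its neighbour *GSTF10* did so too, with 4309, 3126 and 3114 pooled counts in *ADR1-L2 DV*, *sadr1-26.6* and *sadr1-30.4*, against 3721 in Col-0. *GSTU19*, a tau enzyme known for its induction by herbicide safeners, had 5423, 5850 and 4686 pooled counts in those lines, against 7642 in Col-0. Its ratio to Col-0 was below 0 in each line without reaching 2-fold, and the lowest was -0.78 (-0.84 to -0.73) on the log2 scale in *ADR1-L2 DV*.

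**Figure D2:**
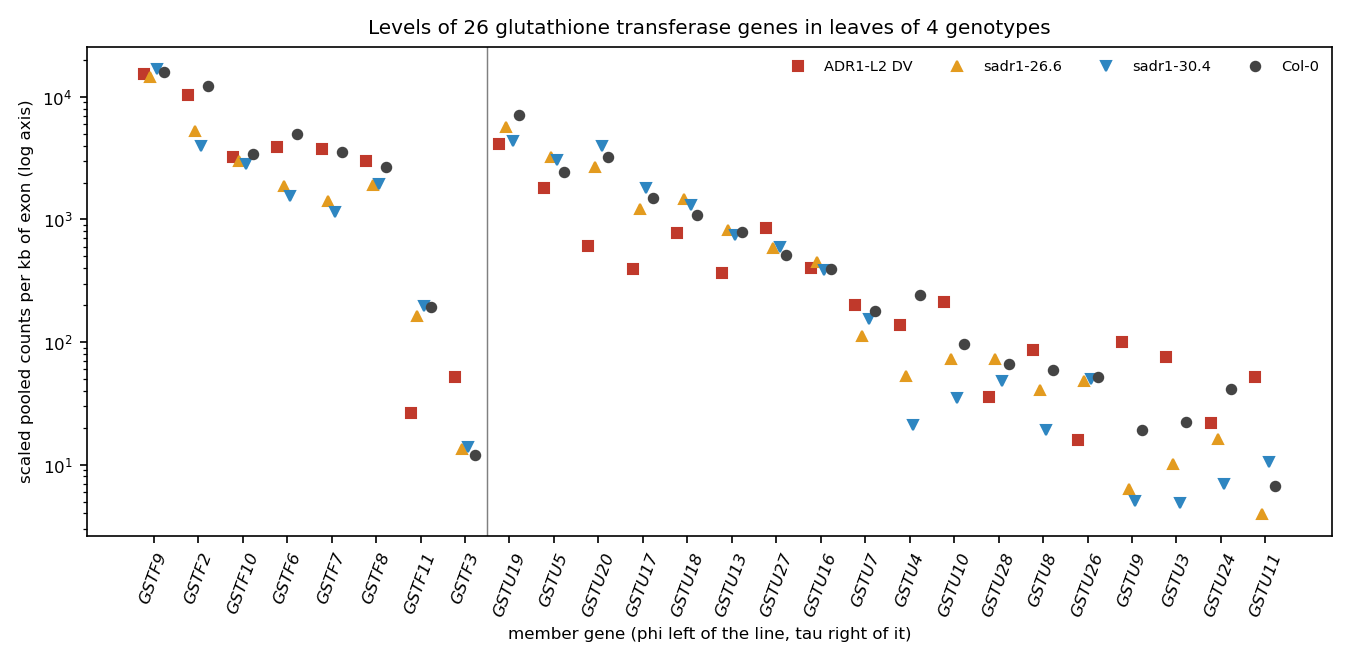
Scaled pooled counts per kb of exon (log axis) of the 26 members with a mean of at least 10 counts, phi genes left and tau genes right of the line, each sorted by mean level; squares are *ADR1-L2 DV*, upward triangles *sadr1-26.6*, downward triangles *sadr1-30.4* and circles Col-0. *GSTF9* lies highest, near 15700, with its 4 symbols close together, while *GSTU20* and *GSTU17* are set apart by their low squares and *GSTF2*, *GSTF6* and *GSTF7* by their low triangles.

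The first question was how the activation mimic alters the family. In *ADR1-L2 DV* against Col-0, 5 of the 26 members (19.2%) were at least 2-fold higher and 5 (19.2%) at least 2-fold lower. Over all genes the shares were 7.38% higher and 7.57% lower. The median log2 ratio of the members was -0.17, that of the phi members -0.06 and that of the tau members -0.46, beside 0.01 for all genes. The members that were higher were scarce transcripts, and those that were lower included some of the abundant tau genes. With scaling by total counts the log2 ratios of this comparison moved up by 0.21 at the median. Over all genes that scaling changed the split to 1826 higher and 961 lower, against 1332 and 1367 with the median of ratios.

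The higher members were *GSTU11* (AT1G69930), *GSTU9* (AT5G62480), *GSTF3* (AT2G02930), *GSTU3* (AT2G29470) and *GSTU10* (AT1G74590). *GSTU11* had 66 pooled counts in *ADR1-L2 DV*, 4 in *sadr1-26.6*, 11 in *sadr1-30.4* and 7 in Col-0. Its log2 ratio to Col-0 was 2.79 (1.82 to 4.32) in *ADR1-L2 DV*. For *GSTU9* the pooled counts were 120 in *ADR1-L2 DV*, 6 in *sadr1-26.6*, 5 in *sadr1-30.4* and 19 in Col-0. Its ratio of 2.31 (1.66 to 3.15) in *ADR1-L2 DV* stood beside values below the Col-0 level in both suppressors. Without its *ADR1-L2 DV* value *GSTU9* would only just reach the filter. *GSTF3*, a close copy of *GSTF2*, had 64, 13 and 14 pooled counts in *ADR1-L2 DV*, *sadr1-26.6* and *sadr1-30.4*, against 12 in Col-0. With a log2 ratio of 2.04 (1.22 to 3.15) in *ADR1-L2 DV*, it was the only phi member of this group. *GSTU3* counted 94 in *ADR1-L2 DV*, 10 in *sadr1-26.6*, 5 in *sadr1-30.4* and 23 in Col-0, a ratio of 1.70 (1.07 to 2.47) in *ADR1-L2 DV*. *GSTU10*, the most strongly expressed of the 5, had 289 pooled counts in *ADR1-L2 DV*, 78 in *sadr1-26.6*, 39 in *sadr1-30.4* and 106 in Col-0. Its log2 ratio in *ADR1-L2 DV* was 1.15 (0.83 to 1.49), so its counting interval reached below 2-fold. Of these 5 genes *GSTU10* alone had a mean of at least 50 counts. Exons of AT1G74580 on the opposite strand overlap 7.72% of its exon sequence, and those of AT1G74600 on the same strand 1.82%. AT1G74600 had 170, 101 and 65 pooled counts in *ADR1-L2 DV*, *sadr1-26.6* and *sadr1-30.4*, against 118 in Col-0.

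The lower members were *GSTF11* (AT3G03190), *GSTU20* (AT1G78370), *GSTU17* (AT1G10370), *GSTU26* (AT1G17190) and *GSTU13* (AT1G27130). *GSTF11*, on chromosome 3 at 734892 to 735987 of TAIR10.1, had 29 pooled counts in *ADR1-L2 DV*, 140 in *sadr1-26.6*, 176 in *sadr1-30.4* and 174 in Col-0. The log2 ratio of *ADR1-L2 DV* to Col-0 was -2.83 (-3.50 to -2.30), the lowest among the 26 members. All of the annotated exon sequence of *GSTF11* is overlapped by exons of AT3G03200 on the opposite strand, which had at most 12 pooled counts in any genotype. *GSTU20*, on chromosome 1 at 29484120 to 29485389, had 814 pooled counts in *ADR1-L2 DV*, 2822 in *sadr1-26.6*, 4380 in *sadr1-30.4* and 3565 in Col-0. It is an abundant tau gene, and its ratio in *ADR1-L2 DV* was -2.42 (-2.53 to -2.31). *GSTU17*, which encodes an enzyme linked to glutathione balance and abscisic acid responses, had 534, 1312 and 2032 pooled counts in *ADR1-L2 DV*, *sadr1-26.6* and *sadr1-30.4*, against 1656 in Col-0. This gave a ratio of -1.92 (-2.07 to -1.78) in *ADR1-L2 DV*.

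For all of these genes the *ADR1-L2 DV* value was the lowest of the 4. *GSTU26*, a scarce transcript, counted 20 in *ADR1-L2 DV*, 47 in *sadr1-26.6*, 51 in *sadr1-30.4* and 53 in Col-0, with a log2 ratio of -1.64 (-2.52 to -0.93) in *ADR1-L2 DV*. *GSTU13*, the member of the indolic pathway, had 551 pooled counts in *ADR1-L2 DV*, 973 in *sadr1-26.6*, 927 in *sadr1-30.4* and 971 in Col-0. Its ratio in *ADR1-L2 DV* was -1.11 (-1.26 to -0.96), and with total-count scaling it was -0.89 and no longer 2-fold lower. Of the 7 leaf markers, 3 were at least 2-fold lower in *ADR1-L2 DV* and 0 were higher, with a median log2 ratio to Col-0 of -0.77. Their part in the values of these members was not tested.

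The 250 bases before the annotated start of 2 of the lower genes are shown, because these are the most abundant members that were at least 2-fold lower in *ADR1-L2 DV*. They are written from 5′ to 3′ on the coding strand, from RefSeq TAIR10.1 on chromosome 1, minus strand, and capitals mark the motif CACGTG (the G-box). The *GSTU20* window spans chr1:29485390-29485639 and the *GSTU17* window chr1:3398359-3398608.
GSTU20: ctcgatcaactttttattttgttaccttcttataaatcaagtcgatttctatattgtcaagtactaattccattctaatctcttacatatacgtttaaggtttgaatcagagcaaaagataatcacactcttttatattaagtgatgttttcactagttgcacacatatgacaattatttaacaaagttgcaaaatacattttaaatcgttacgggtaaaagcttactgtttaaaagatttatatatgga
GSTU17: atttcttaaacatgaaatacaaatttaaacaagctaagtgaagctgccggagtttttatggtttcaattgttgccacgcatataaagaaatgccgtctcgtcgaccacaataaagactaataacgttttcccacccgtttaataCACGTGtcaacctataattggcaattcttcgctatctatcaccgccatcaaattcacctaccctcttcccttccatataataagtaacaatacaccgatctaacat
The other motifs described below were not found in these windows.

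Since *GSTF11* and *GSTU20* belong to aliphatic glucosinolate synthesis, the other genes of that pathway were read beside them. Of 9 listed genes of its core and regulation, 6 were at least 2-fold lower in *ADR1-L2 DV* than in Col-0 and 0 were higher. Over all genes 7.57% were lower and 7.38% higher. The median log2 ratio of the 9 was -1.64 beside 0.01 for all genes. The MYB regulator gene *MYB29* had 87 pooled counts in *ADR1-L2 DV* against 768 in Col-0, a ratio of -3.41 (-3.77 to -3.11). The glucosyltransferase gene *UGT74C1* had 505 against 1460 (-1.82), and *MYB28* 554 against 1587 (-1.81). *SUR1* (-0.42), *SOT17* (-0.66) and *CYP79F2* (0.43) stayed within 2-fold. None of the 9 was 2-fold higher or lower than Col-0 in *sadr1-26.6* or *sadr1-30.4*, where the medians were -0.05 and 0.23.

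**Figure D3:**
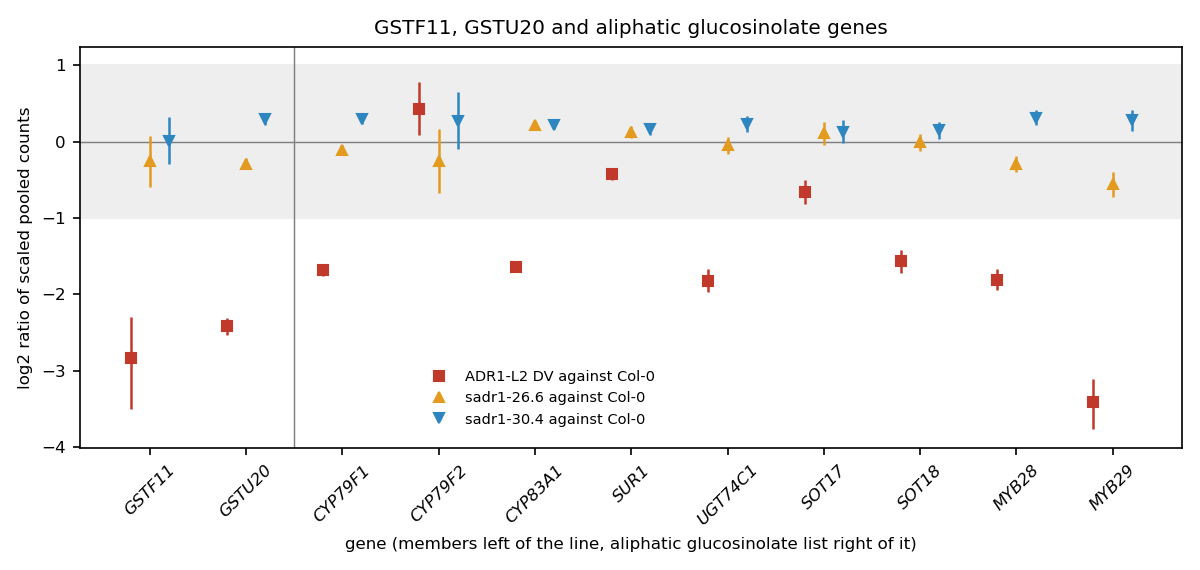
Log2 ratios of scaled pooled counts to Col-0 for *GSTF11* and *GSTU20* (left of the line) and 9 aliphatic glucosinolate genes (right of it); squares are *ADR1-L2 DV*, upward triangles *sadr1-26.6* and downward triangles *sadr1-30.4*, lines are 95% counting intervals and grey marks ratios under 2-fold. The squares of *GSTF11*, *GSTU20* and 6 of the 9 genes lie below the grey band, and all triangles lie inside it.

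The second question was how the family stood in the suppressors. In *sadr1-26.6* against Col-0, 0 of the 26 members were at least 2-fold higher and 7 (26.9%) at least 2-fold lower, where 1.83% and 2.39% of all genes were. In *sadr1-30.4* against Col-0, 0 members were higher and 9 (34.6%) lower, where 1.30% and 2.23% of all genes were. These comparisons share the Col-0 value with each other and with that of *ADR1-L2 DV*, so a high Col-0 value lowers all 3 ratios at once. The lower members included the abundant phi genes *GSTF2* (AT4G02520), *GSTF6* (AT1G02930) and *GSTF7* (AT1G02920), which were not 2-fold lower in *ADR1-L2 DV*.

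*GSTF2*, whose product binds small indole compounds and whose gene responds to salicylic acid and ethylene, lies on chromosome 4 at 1110343 to 1112033. It had 17762 pooled counts in *ADR1-L2 DV*, 7225 in *sadr1-26.6*, 5663 in *sadr1-30.4* and 17335 in Col-0. The log2 ratio to Col-0 was -0.26 (-0.29 to -0.22) in *ADR1-L2 DV*, -1.21 (-1.25 to -1.17) in *sadr1-26.6* and -1.62 (-1.67 to -1.58) in *sadr1-30.4*. The values of *ADR1-L2 DV* and Col-0 were thus close, and both suppressors were far below them. Exons of AT4G02510 on the opposite strand overlap 60.5% of the *GSTF2* exon sequence. That gene had 7881, 7409 and 7620 pooled counts in *ADR1-L2 DV*, *sadr1-26.6* and *sadr1-30.4*, against 6902 in Col-0. The strand setting of the counting is not given in the sources used here, so reads of the overlap cannot be assigned.

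*GSTF6* and *GSTF7* are neighbours on chromosome 1, at 661088 to 662475 and 658578 to 659980. *GSTF6* had 5392 pooled counts in *ADR1-L2 DV*, 2051 in *sadr1-26.6*, 1761 in *sadr1-30.4* and 5596 in Col-0. *GSTF7* had 5376, 1590 and 1335 in the same lines, against 4100 in Col-0. Both were at least 2-fold lower in each suppressor than in Col-0, with log2 ratios of -1.40 (-1.47 to -1.32) and -1.32 (-1.40 to -1.23) in *sadr1-26.6*. In *sadr1-30.4* the ratios were -1.68 (-1.75 to -1.60) for *GSTF6* and -1.63 (-1.72 to -1.54) for *GSTF7*. In *ADR1-L2 DV* they were -0.34 (-0.40 to -0.29) and 0.10 (0.04 to 0.16), both well inside 2-fold.

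The coding sequences of *GSTF6* and *GSTF7* were 94.7% identical, the closest pair among the members. A stretch of 116 bases is the same letter for letter in both, and is shown because reads that fall within it fit either gene. It lies at chr1:661565-661680 in *GSTF6* and chr1:659088-659203 in *GSTF7* (TAIR10.1, minus strand, written on the coding strand).
GSTF6 and GSTF7: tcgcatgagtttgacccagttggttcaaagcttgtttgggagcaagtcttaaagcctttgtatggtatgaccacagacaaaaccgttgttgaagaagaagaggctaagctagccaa
Of all 50-base words in the exons of *GSTF6*, 10.3% occur elsewhere in the genome, and of the 1066 words of *GSTF7* 107 do. Most of either gene was therefore unique at this length, though the read length is not given in the sources used here. *GSTF2* and *GSTF3* were the next closest pair, at 94.5% identity, and shared no 50-base word. Their levels differed widely, with 17335 and 12 pooled counts in Col-0 over exon lengths of 1471 and 1046 bases. *GSTU8* was the only other member with repeated words, at 1.67%.

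The 250 bases before the start of *GSTF7* are shown because this abundant phi gene was at least 2-fold lower in both suppressors. Capitals mark the W-box cores TTGACC and TTGACT on either strand, of which GGTCAA is one written on the other strand. The window spans chr1:659981-660230 (TAIR10.1, minus strand, written on the coding strand).
GSTF7: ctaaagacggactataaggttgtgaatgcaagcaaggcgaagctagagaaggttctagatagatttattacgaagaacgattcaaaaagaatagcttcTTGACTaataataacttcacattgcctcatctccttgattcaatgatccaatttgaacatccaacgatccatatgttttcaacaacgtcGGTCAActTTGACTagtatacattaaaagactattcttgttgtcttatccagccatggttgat
*GSTF7* had 3 W-box cores in this window, the most of any of the 34 members, while *GSTF2* had 0.

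Over all 34 members, 20 (58.8%) held TTGACC or TTGACT on either strand in this window, and 28.5% of 28008 promoters of the same length did. TGACG, the core of elements bound by TGA factors, was found in 14 members (41.2%) and in 18.5% of all promoters. CACGTG was found in 3 members (8.82%) and in 6.45% of all promoters. TGACG and TTGACC or TTGACT differ in the letter after TGAC, so 1 TGAC cannot count for both. These are matches of letters, members in tandem arrays share sequence, and nothing follows from them about a factor.

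The tau genes *GSTU4* (AT2G29460) and *GSTU24* (AT1G17170) also stood lower in both suppressors. *GSTU4*, a member of the tandem array on chromosome 2, had 189 pooled counts in *ADR1-L2 DV*, 58 in *sadr1-26.6*, 24 in *sadr1-30.4* and 272 in Col-0. Its log2 ratios to Col-0 were -0.81 (-1.09 to -0.54) in *ADR1-L2 DV*, -2.16 (-2.61 to -1.76) in *sadr1-26.6* and -3.46 (-4.18 to -2.91) in *sadr1-30.4*. The last was the lowest ratio to Col-0 of any of the 26 members in a suppressor. *GSTU24*, known for its induction by explosives such as TNT, had 31, 18 and 8 pooled counts in these lines, against 48 in Col-0. Its ratios were -1.32 (-2.23 to -0.56) in *sadr1-26.6* and -2.46 (-3.88 to -1.5) in *sadr1-30.4*. *GSTU3* and *GSTU9*, which were higher in *ADR1-L2 DV*, were lower than Col-0 in the suppressors on few counts, at -1.08 (-2.39 to -0.02) and -1.48 (-3.23 to -0.23) in *sadr1-26.6*. In *sadr1-30.4* they stood at -2.01 (-3.96 to -0.78) and -1.75 (-3.71 to -0.46), and *GSTU8* and *GSTU10* were lower as well. *GSTU8* had 137 pooled counts in *ADR1-L2 DV*, 51 in *sadr1-26.6*, 25 in *sadr1-30.4* and 77 in Col-0, with -1.59 (-2.34 to -0.96) in *sadr1-30.4*. For *GSTU10* the ratio in *sadr1-30.4* was -1.43 (-2.02 to -0.91).

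**Figure D4:**
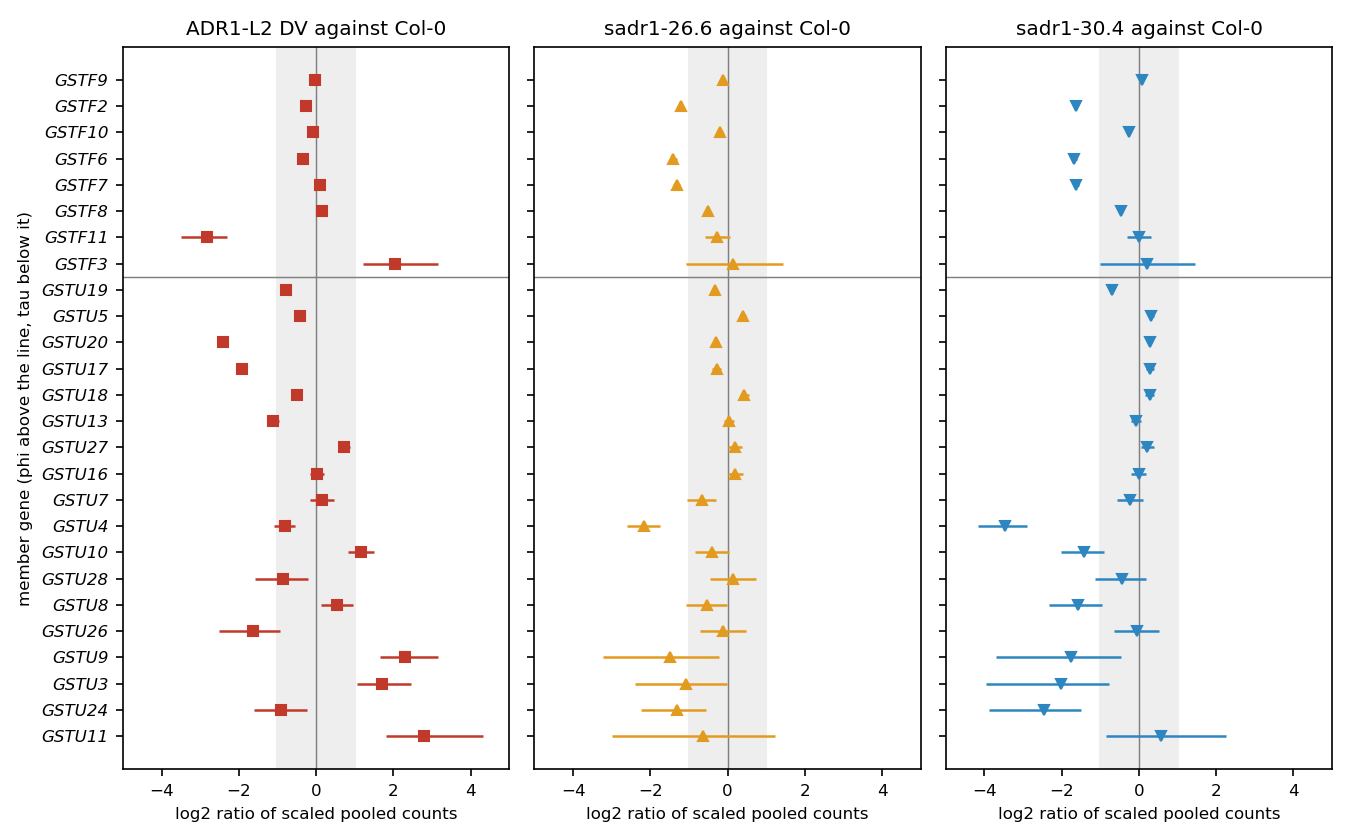
Log2 ratios of scaled pooled counts to Col-0 in *ADR1-L2 DV*, *sadr1-26.6* and *sadr1-30.4* for the 26 members with a mean of at least 10 counts, phi genes above and tau genes below the line; lines are 95% counting intervals, grey marks ratios under 2-fold, and all panels share the Col-0 value. On the left 5 members lie beyond the grey band on each side, and in the other panels 7 and 9 lie beyond it, all on the low side.

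Because the suppressors hold the same transgene, they were also compared with *ADR1-L2 DV* directly. In *sadr1-26.6* against *ADR1-L2 DV*, 5 of the 26 members (19.2%) were at least 2-fold higher and 9 (34.6%) at least 2-fold lower, where 7.11% and 7.91% of all genes were. In *sadr1-30.4* against *ADR1-L2 DV*, 5 (19.2%) were higher and 11 (42.3%) lower, where 8.96% and 9.67% of all genes were. With total counts, all genes split into 830 higher and 2100 lower for *sadr1-26.6* (1284 and 1427 with the median of ratios), and into 1060 and 2447 for *sadr1-30.4* (1617 and 1746). With that scaling the members split into 4 higher and 11 lower in each. Both comparisons share the *ADR1-L2 DV* value with each other and with the comparison of *ADR1-L2 DV* with Col-0, so a low *ADR1-L2 DV* value alone makes a member lower there and higher here. The higher members were *GSTF11*, *GSTU20*, *GSTU17*, *GSTU26* and *GSTU13*. *GSTU20* stood at 2.13 (2.02 to 2.25) in *sadr1-26.6* and 2.71 (2.60 to 2.82) in *sadr1-30.4* on the log2 scale. With total counts *GSTU13* was 0.91 and 0.80, under 2-fold. Among the lower members *GSTU9* had the lowest ratio in each comparison, at -3.79 (-5.46 to -2.82) in *sadr1-26.6* and -4.06 (-5.95 to -3.04) in *sadr1-30.4*. *GSTU11*, also lower in both, passed the filter only through its *ADR1-L2 DV* value. *GSTF7* was at -1.42 (-1.5 to -1.34) and -1.73 (-1.82 to -1.64). *GSTF2* reached 2-fold only in *sadr1-30.4*, at -1.37 (-1.41 to -1.32), and stood at -0.96 (-1.0 to -0.92) in *sadr1-26.6*.

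Neighbours within an array differed. The chromosome 2 array holds *GSTU1* to *GSTU7* between 12617936 and 12632538 of TAIR10.1. *GSTU5* dominated it, with 2711 pooled counts in *ADR1-L2 DV*, 3831 in *sadr1-26.6*, 3753 in *sadr1-30.4* and 2993 in Col-0. Its log2 ratios to Col-0 were -0.43 (-0.51 to -0.36), 0.41 (0.34 to 0.48) and 0.32 (0.25 to 0.39) in these lines, inside 2-fold, while its neighbour *GSTU4* was at least 2-fold lower in both suppressors. *GSTU7* had 208, 93 and 131 pooled counts in the same lines, against 153 in Col-0. In the chromosome 1 pair *GSTU17* and *GSTU18*, whose coding sequences were 81.6% identical, *GSTU18* had 922, 1378 and 1292 counts, against 1056 in Col-0. The *ADR1-L2 DV* ratio of *GSTU18* was -0.49 (-0.61 to -0.36), beside -1.92 for *GSTU17*. Their annotated exons overlap by 71 bases on the same strand, which is 6.12% of the exon sequence of *GSTU17*.

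The other members with a mean of at least 10 counts stayed within 2-fold of Col-0 in every line. *GSTF8*, a phi gene long used as a marker of early stress responses in roots, had 8487 pooled counts in *ADR1-L2 DV*, 4215 in *sadr1-26.6*, 4520 in *sadr1-30.4* and 6195 in Col-0. Its ratios to Col-0 were 0.16 (0.12 to 0.21), -0.50 (-0.56 to -0.45) and -0.46 (-0.52 to -0.41), so it too had its lowest values in the suppressors. *GSTU27* counted 1038 in *ADR1-L2 DV*, 562 in *sadr1-26.6*, 597 in *sadr1-30.4* and 510 in Col-0, and at 0.73 (0.58 to 0.89) it was the highest of those within 2-fold in *ADR1-L2 DV*. *GSTU16* had 525, 470 and 422 pooled counts, against 423 in Col-0, and *GSTU28* 32, 51 and 35, against 48. The remaining 8 members had a mean below 10 counts. *GSTU1* and *GSTU6* reached 17 and 14 pooled counts in Col-0, and *GSTF12* 6. *GSTU2*, *GSTU12*, *GSTU22* and *GSTU25* had at most 4 counts in any genotype. *GSTF14* had 0 in all 4, which allows up to 3 counts per genotype. None of these 8 genes entered the counts of called members. The one interval among them that excluded 0 was that of *GSTU1* in *sadr1-26.6* against Col-0, on 3 against 17 counts, with a log2 ratio of -2.14 (-4.86 to -0.66).

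Of the 7 phi and tau genes that are not among the 34, 5 had at most 4 counts in any genotype and 2 had a mean of at least 10 counts. *GSTF4* had 30, 32 and 49 pooled counts in *ADR1-L2 DV*, *sadr1-26.6* and *sadr1-30.4*, against 77 in Col-0, and *GSTU23* had 8, 24 and 27, against 31. Both were at least 2-fold lower in *ADR1-L2 DV*, at -1.61 (-2.31 to -1.02) and -2.09 (-3.58 to -1.09). Of the 12 genes of other glutathione transferase classes that passed the filter, 2 were at least 2-fold lower in *ADR1-L2 DV* and 0 were higher. Over all genes the shares were 7.57% lower and 7.38% higher. *DHAR1*, a dehydroascorbate reductase gene, had 1295, 3799 and 3890 counts, against 2888 in Col-0, a ratio of -1.45 (-1.54 to -1.35) in *ADR1-L2 DV*. The lambda class gene *GSTL1*, with 24, 15 and 6 counts against 41 in Col-0, was lower in *ADR1-L2 DV* (-1.03), *sadr1-26.6* (-1.35) and *sadr1-30.4* (-2.60).

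Genes that supply glutathione were mostly within 2-fold of Col-0. Of 13 genes of its synthesis, reduction and turnover, 1 was at least 2-fold higher in *ADR1-L2 DV* and 0 were lower. Over all genes the shares were 7.38% higher and 7.57% lower. The median log2 ratio of the 13 was -0.26 beside 0.01 for all genes. The lowest of the 13 was *GR2*, at -0.88, and the synthesis genes *GSH1* and *GSH2* were at -0.38 and -0.51. The one higher gene was *GGCT2;1*, which encodes an enzyme of glutathione breakdown, with 147, 46 and 36 pooled counts in *ADR1-L2 DV*, *sadr1-26.6* and *sadr1-30.4*, against 14 in Col-0. Its ratios were 3.02 (2.31 to 4.01), 1.70 (0.88 to 2.75) and 1.30 (0.43 to 2.36). Of 15 genes for conjugate transport and the xenobiotic response, 2 were at least 2-fold higher and 2 lower in *ADR1-L2 DV*, beside the same shares of all genes. Their median was 0.52. The vacuolar transporter gene *ABCC3* had 11481, 2968 and 1939 counts, against 2580 in Col-0, with 1.86 (1.80 to 1.93) in *ADR1-L2 DV*. The other higher gene was the glucosyltransferase gene *UGT74E2*, with 68, 5 and 1 counts, against 3 in Col-0. The oxophytodienoate reductase genes *OPR1* (-1.11) and *OPR2* (-1.33) were the 2 lower genes. The factor genes *TGA2*, *TGA5* and *TGA6*, whose products bind TGACG elements, stood at 0.59, 0.94 and 0.52 in *ADR1-L2 DV*, under 2-fold.

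In the list of indole glucosinolate and camalexin genes, where *GSTF6* and *GSTU13* have their place, 1 of 8 was at least 2-fold lower in *ADR1-L2 DV* and none was higher. Over all genes 7.57% were lower and 7.38% higher. The suppressors had 1 lower gene (*sadr1-26.6*) and 2 lower genes (*sadr1-30.4*), with 0 higher, where 2.39% and 2.23% of all genes were lower. *PAD3*, the last enzyme of camalexin synthesis, had 379 pooled counts in *ADR1-L2 DV*, 207 in *sadr1-26.6*, 93 in *sadr1-30.4* and 622 in Col-0. Its ratios of -1.0 (-1.19 to -0.82), -1.53 (-1.77 to -1.31) and -2.74 (-3.08 to -2.43) had their lowest value in *sadr1-30.4*. The lowest ratio of *GSTF6* was in that line too, whereas that of *GSTU13* was in *ADR1-L2 DV*. *CYP71A13*, an earlier enzyme of that pathway, was at -0.46, -0.35 and -1.37, and *CYP79B3* at -0.59, -0.08 and -0.22. Above 0 but under 2-fold were *CYP83B1* (0.69, 0.29 and 0.18), *CYP79B2* (0.50, 0.42 and 0.03), *SOT16* (0.37, 0.17 and 0.19) and *PEN2* (0.01, 0.16 and 0.02). The remaining gene, *UGT74B1*, was at -0.28, 0.04 and 0.12. Of 8 late anthocyanin genes, which act beside *GSTF12*, 3 passed the filter. The glucosyltransferase gene *UGT75C1* was the 1 lower gene in *ADR1-L2 DV* and in *sadr1-26.6*, with 14, 46 and 101 counts, against 140 in Col-0.

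The suppressor alleles were not alike for every member. In *sadr1-30.4* against *sadr1-26.6*, 1 of the 26 members was at least 2-fold higher and 4 were at least 2-fold lower (3.85% and 15.4%), where 1.97% and 2.07% of all genes were. *GSTU4* had 24 pooled counts in *sadr1-30.4* and 58 in *sadr1-26.6*, a log2 ratio of -1.30 (-2.08 to -0.62). *GSTU8* had 25 and 51 (-1.06, -1.84 to -0.37), *GSTU10* had 39 and 78 (-1.04, -1.65 to -0.49), and *GSTU24* had 8 and 18 (-1.14, -2.64 to 0.04). *GSTU11*, the higher one, had 11 and 4 counts, with an interval that includes 0 (-0.35 to 3.51). The summed phi and tau counts of both alleles were close, at log2 ratios of 0.01 (-0.01 to 0.03) and 0.01 (-0.02 to 0.04). These are pooled values, so the spread between experiments that would bear on these differences was not measured here.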

How the data were processed

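RNA was sequenced from leaves in 12 samples of 4 genotypes, grouped by their labels. Per the labels, the submitters' processing notes name the build TAIR10. For the aligner, counting tool, strand setting and read length the sources used here give nothing. The authors deposited whole-number counts per gene, 1 pooled value per genotype. The column headers say RPKM, but the values are whole and, multiplied by exon length in kb, sum to 40.8 to 45.5 times the fixed total of RPKM values. They were therefore read as counts. Whether samples were summed or averaged is not stated. If they were averaged, counting intervals are wider than needed. The other 6 columns hold the authors' own comparisons with Col-0 (log2 fold changes and FDR values) and were not used.

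Counts were scaled by the median of ratios over genes above 0 in all genotypes (size factors 0.925 to 1.17), and the log2 ratio was taken with a pseudocount of 1 over genes with a mean of at least 10 counts. No test was run. Ratios and intervals were checked on simulated counts that held counting error only, so the check does not cover variation between plants or experiments. Alternatives were edgeR 4.0.16 TMM factors, total counts, pseudocounts of 5 and 0.5, no filter or a mean of 50 counts, and a counting interval wholly beyond 2-fold. Positions, exon lengths and sequences came from RefSeq TAIR10.1, in which 28009 of the 28496 AGI codes were found. The deposited table has no coordinates. Python 3.11.15, numpy 2.4.6, scipy 1.17.1 and pandas 2.3.3 were used. Members and lists were chosen with earlier results of these data known. Values are given for members with a mean of at least 50 counts that were 2-fold higher or lower than Col-0 in any line. They are also given for the 5 of highest level per kb. From each list the plan was to give up to 3 genes per direction, by the largest ratios in *ADR1-L2 DV* at that mean. Not all of the genes so chosen are given. Other genes were named after their values were seen. Promoter windows that overlap another gene are not printed. A further promoter sequence is not reported here.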

Additional observations from a re-analysis of the deposited data

How the results depend on the processing

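No paired analysis was possible because the deposited columns combine the 3 samples of a genotype and carry no replicate number, and for the same reason no replicate could be left out. TMM scaling, total counts and pseudocounts of 0.5 and 5 kept every total of called members and of all called genes within 1.5 times its main value. These totals take higher and lower together, and no called member changed direction under these settings. Counts of a single direction could move further. With total counts, 830 of all genes were higher in *sadr1-26.6* against *ADR1-L2 DV*, instead of 1284. A minimum mean of 50 counts kept 19 members and 15381 genes, instead of 26 and 18048. Of these 19, 5 were called in *ADR1-L2 DV* against Col-0 (10 with the minimum of 10), 1 higher and 4 lower. Against Col-0, 4 were called in *sadr1-26.6* (7 with the minimum of 10) and 6 in *sadr1-30.4* (9). Against *ADR1-L2 DV*, 9 were called in *sadr1-26.6* (14) and 10 in *sadr1-30.4* (16). Of the 15381 genes, 1761, 314 and 259 were called in *ADR1-L2 DV*, *sadr1-26.6* and *sadr1-30.4* against Col-0, instead of 2699, 762 and 636. Without a filter, 11 of all 34 members were called in *sadr1-26.6* against Col-0. Of all 28496 genes, 4389, 2464 and 2358 were then called in the comparisons with Col-0. Against *ADR1-L2 DV* the numbers were 4364 in *sadr1-26.6* and 5132 in *sadr1-30.4*. Where the whole counting interval had to lie beyond 2-fold, 4 members were called in *sadr1-26.6* and 5 in *sadr1-30.4* against Col-0, all lower. In *ADR1-L2 DV* against Col-0 that rule left 7 members, 4 higher and 3 lower. The higher member it dropped was *GSTU10*. All genes then numbered 1514, 197 and 156 against Col-0 and 1496 and 2006 against *ADR1-L2 DV* (2711 and 3363). The minimum of 50 counts acts by construction on scarce genes, to which 4 of the 5 members higher in *ADR1-L2 DV* belong.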
